A study of Schmidtea mediterranea with 15 samples.

Results

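The first day after a high dose of gamma radiation was examined in whole planarians by comparing transcript levels in worms 24 h after irradiation with those in unirradiated worms. The animals were the freshwater flatworm Schmidtea mediterranea, all of the clonal CIW4 line, so both groups share one genetic background. All had been kept on calf liver and went without food for 1 week or longer beforehand. The irradiated worms (24 h) had received 6000 rad and the unirradiated worms (0 h) had received 0 rad. Each group was represented by 3 polyA RNA libraries made from whole worm tissue, out of 15 libraries in the series. Whether replicate libraries stem from separate cultures or pools of animals is not stated in the labels, so p-values measure the spread between these libraries, which may be technical. Unirradiated worms were sampled at 0 h only, so irradiation cannot be told apart from elapsed time or from handling and library preparation that differed between the groups.

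The deposited table lists 26671 transcript models. The comparison covers the 20089 models (75.3%) with 1 RPKM or more in 3 or more of the 6 libraries of both groups together. RPKM is the number of reads per kilobase of model, scaled to the reads of the library. Of these 20089 models, 17398 reached 1 RPKM in all 6 libraries, whereas 59 did so in the 3 libraries at 24 h and none at 0 h, and 322 in the 3 libraries at 0 h and none at 24 h. A model admitted through 1 group in this way had to differ between the groups. The models carry IDs without gene names, and no name table was used here. No cell type, pathway or function is therefore attached to any of them, and the worms' cell types could not be checked against marker genes.

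As background, planarians renew all their tissues from neoblasts, stem cells that lie in the mesenchyme. Neoblasts are the only dividing somatic cells of the adult animal and are lost within days of a high dose of ionising radiation, after which tissues are no longer renewed. Transcripts of neoblasts are known to decline before those of their differentiating progeny. In whole worms, fewer cells of a type and less RNA per cell cannot be told apart.

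The reads behind the values were worked out from the steps of the RPKM values. The libraries held 16435841, 24765138 and 16453279 reads at 24 h, against 13801926, 9749391 and 12435668 at 0 h. Every library at 24 h was thus deeper than every library at 0 h, and the part of depth in the results was examined by thinning all libraries to the 9749391 reads of the shallowest. Fewer of the 20089 models reached 1 RPKM in each library at 24 h (18981 to 19093) than at 0 h (19265 to 19385). RPKM is scaled to depth, and the 20089 models were chosen by this same limit, with 322 admitted only through 0 h and 59 only through 24 h.

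The libraries of the 2 groups differed from each other in how their reads were spread over the models by more than libraries of the same group did. Between a library at 24 h and one at 0 h, 8.27% to 9.30% of reads lay on other models, with a median of 8.62% over 9 pairs. Between libraries of the same group the share was 2.24% to 2.91% at 24 h and 1.96% to 2.39% at 0 h, over 3 pairs each. After thinning to equal depth the between-group pairs ranged from 8.34% to 9.40%, and the pairs within a group from 2.64% to 3.29% at 24 h and from 2.04% to 2.51% at 0 h. The single most abundant model moved some of these values, since it took 10.3%, 11.6% and 11.3% of reads at 24 h, against 11.8%, 11.1% and 11.2% at 0 h. These ranges overlap, and the model was not called different (log2 change -0.04, SE 0.12, limma adjusted p = 0.798). Without it, 9.11% to 9.57% of reads lay on other models in the between-group pairs.

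At 24 h transcript models moved in both directions, and the large changes were falls. In limma's test on log2(RPKM + 0.5), 4070 of the 20089 models were higher at 24 h and 4400 were lower at an adjusted p below 0.05. Over all 21231 models fitted, 40.2% were called, with 19.4% higher and 20.9% lower. The median change of the 20089 models was -0.01 on the log2 scale, as was that of all models fitted. The values of the 3 libraries at 24 h lay above all 3 at 0 h for 4797 models and below all 3 for 5203, where the shares over all models fitted were 23% and 24.9%. Among the called models, 3885 of the higher and 4235 of the lower were separated in this way, and 350 had overlapping libraries. In reads thinned to equal depth, 3100 of the 20089 models were called higher and 3437 lower. Of the 4070 higher models 3030 were still called higher, and of the 4400 lower models 3353 were still called lower.

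Most called changes were small, and the balance of direction turned with their size. Among changes of less than 1.5-fold, 3710 models were higher and 2892 lower. Between 1.5- and 2-fold, 322 were higher and 1007 lower. At 2- to 4-fold, 38 were higher and 382 lower. At 4- to 8-fold and at 8-fold and over, 78 and 41 models were lower and none were higher. No rise of at least 4-fold was found at an unadjusted p below 0.05 either, whereas limma-voom on the recovered reads gave 2, and limma gave 1 without 24 h replicate 1 and 1 without 0 h replicate 2. Changes of less than 1.5-fold made up 77.9% of all calls, and the smallest change called was 0.07 on the log2 scale.

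**Figure D1:**
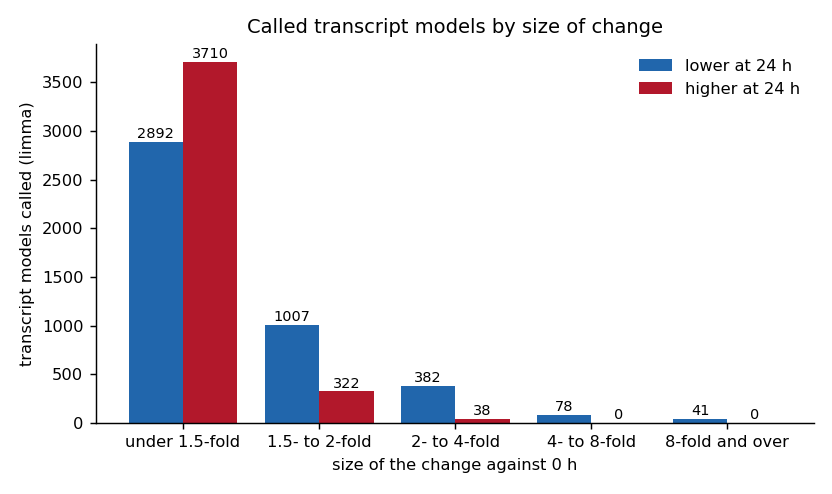
Number of transcript models called lower (blue) or higher (red) at 24 h than at 0 h, by the size of the change on the log2(RPKM + 0.5) scale. Rises outnumber falls under 1.5-fold (3710 and 2892), and falls outnumber rises in every larger class.

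On the log2 scale of the test, the precision of the comparison was high enough to bound the change of most models that were not called. This scale understates changes at low levels. For models of low abundance, a bound on it is therefore not a bound on the fold change in RPKM. The 95% interval of the log2 change lay within 2-fold in either direction for 18524 models (92.2%) and within 1.5-fold for 13792 (68.7%). Of the 11619 models not called, 8833 had an interval within 1.5-fold on this scale. For 406 the interval reached a 2-fold change, so that a change of that size on this scale was not excluded at this depth. The median SE of the log2 change was 0.09.

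Falls of 2-fold or more were called for 501 models, where 2.38% of all models fitted had one. They were mostly of low to middle abundance, with a median of 1.497 RPKM at 24 h and 5.80 RPKM at 0 h. Their quartiles at 0 h were 3.17 and 13.9 RPKM, and 24 of them stood at 100 RPKM or above. At 24 h the level of these 501 models was 29.7% of that at 0 h (median of the ratios of mean RPKM), with quartiles of 11.7% and 40.4%. The libraries of the groups did not overlap for 499 of the 501 models, which the choice of the models favours. Over all models fitted, 24.9% had the 3 libraries at 24 h below all 3 at 0 h. Of the 501, 198 were among the models admitted only through their level at 0 h and 303 were not.

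The share of reads on these models was nearly equal between libraries of a group. The 501 models, chosen for their fall in these libraries, together took 0.475%, 0.490% and 0.488% of reads at 24 h, against 1.41%, 1.41% and 1.41% at 0 h. The groups were thus far apart relative to their spread, which the choice of the models fixes. Leaving out any 1 of the 6 libraries gave between 498 and 536 such models, and 419 of the 501 were at least 2-fold lower in all 6 of these fits. At equal depth 476 of the 501 kept a 2-fold fall.

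The largest falls on the log2(RPKM + 0.5) scale went nearly to the limit of detection. At least 4-fold falls were called for 119 models (0.561% of all models fitted) and at least 8-fold falls for 41 (0.193% of all models fitted). The 41 had a median of 0.374 RPKM at 24 h and 9.92 RPKM at 0 h. All 41 were below 10% of their level at 0 h, 32 of them below 5%. By this ratio of means, without the pseudocount, 114 of the 501 models were below 10% and 67 below 5%. Falls of this depth were therefore not confined to the 41 models. Together they held 808, 1151 and 740 reads at 24 h, against 19039, 13325 and 17050 reads at 0 h, although the libraries at 24 h were the deeper ones. As shares of the library these were 0.00492%, 0.00465% and 0.00450% at 24 h, against 0.138%, 0.137% and 0.137% at 0 h. Of the 41 models, 32 were admitted only through their level at 0 h. Their number depended on the pseudocount, since 28 of the 41 lay under 0.5 RPKM at 24 h, and was 17 with a pseudocount of 1 RPKM, 113 with 0.1 RPKM and 125 with limma-voom.

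**Figure D2:**
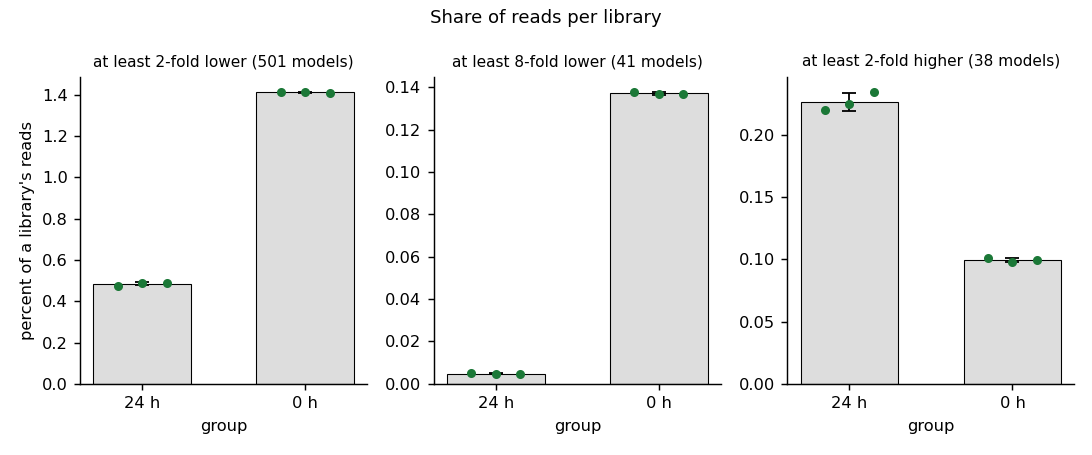
Percent of each library's recovered reads on the models called at least 2-fold lower, at least 8-fold lower and at least 2-fold higher at 24 h, each panel with its own axis from 0. Points are the 3 libraries of a group, bars their mean and error bars the SD, and the models were chosen on these same libraries. The 501 falling models held 0.484% of reads at 24 h, against 1.41% at 0 h.

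For 2 of the 20089 models no read was found at 24 h. The first had 0 reads over the 3 libraries at 24 h, against 24, 14 and 25 reads at 0 h (1.39 ± 0.243 RPKM, SD, n = 3). With a floor of 3 reads over the group at 24 h, it was at least 33.6-fold lower. The second had 0 reads at 24 h, against 14, 8 and 12 reads at 0 h (1.44 ± 0.167 RPKM), and was at least 18.1-fold lower with the same floor. Both were called lower (limma adjusted p = 1.11e-06 and 1.61e-06). These 2 models were admitted only through their level at 0 h and picked for their 0 reads at 24 h. A difference was thus fixed by the choice, and the p-values do not account for it. On the log2(RPKM + 0.5) scale, which understates changes at low levels, neither was among the 119 models at least 4-fold lower. A few reads were found on both at later times, 3 in all on the first and 6 on the second over the 9 libraries from 48 to 96 h, so they were not detectable at this depth at 24 h rather than shown to be absent. The floor covers counting error at 24 h only. The reads at 0 h were taken as observed, so their counting error is not in these folds. No model among the 20089 had 0 reads at 0 h and at least 3 at 24 h. In thinned reads 5 of the 20089 had 0 reads at 24 h and at least 3 at 0 h, and 0 had the reverse. Among the models outside the 20089, with all reads, 4 had 0 reads at 24 h and at least 3 at 0 h, and 2 had the reverse.

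On the log2(RPKM + 0.5) scale, the largest fall among the models that passed the naming rule was that of SMED30031235, a model of 1613 bases. It had 2.94, 3.24 and 3.04 RPKM at 24 h, against 154, 152 and 156 RPKM at 0 h. All 3 libraries at 24 h were low and close together, far below the 3 at 0 h. Its mean level at 24 h was 3.07 ± 0.151 RPKM, against 154.1 ± 2.36 RPKM at 0 h (SD, n = 3), which is 1.99% of the level at 0 h. By this ratio of means, without the pseudocount, other models fell further, since the 41 models at least 8-fold lower had a lower quartile of 1.39% and a minimum of 0.486% of the level at 0 h. The log2 change was -5.44 (SE 0.07, limma adjusted p = 1.79e-16), and its 95% interval ran from -5.59 to -5.28. A library at 24 h held 80 to 128 reads of it, and a library at 0 h held 2426 to 3450. In the order of mean RPKM over all models it stood at place 13859 at 24 h and at place 639 at 0 h.

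The largest loss of reads among the models at least 2-fold lower was that of SMED30014446, a model of 4773 bases. It had 66.0, 66.1 and 68.3 RPKM at 24 h, against 165, 161 and 163 RPKM at 0 h. The groups did not overlap, and the spread within each was small beside the gap. Its share of reads averaged 0.0321% ± 0.000754 at 24 h, against 0.0783% ± 0.000767 at 0 h (SD, n = 3). The log2 change was -1.28 (SE 0.03, limma adjusted p = 2.61e-13). This fall left 41.0% of the level at 0 h, where SMED30031235 kept 1.99%, and at 0 h the 2 models stood at similar levels of 162.9 ± 1.85 RPKM and 154.1 ± 2.36 RPKM. The 2 models thus differed in the extent of their fall at 24 h. SMED30031235 was picked for its log2 change and SMED30014446 for its loss of reads, so a gap in log2 change was favoured by the choice. It describes these 2 models only.

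**Figure D3:**
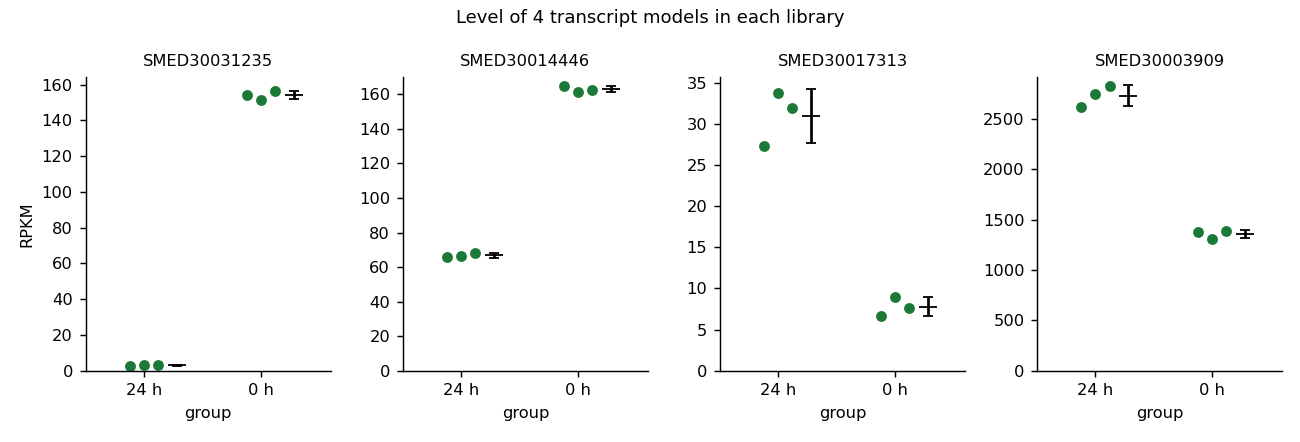
RPKM of the 4 named transcript models in each library at 24 h (left in each panel) and 0 h (right), with the mean and SD of the 3 libraries beside the points and an axis from 0 per panel. SMED30031235 and SMED30014446 were lower in all 3 libraries at 24 h, and SMED30017313 and SMED30003909 were higher in all 3.

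Rises of at least 2-fold were called for 38 models, where 0.203% of all models fitted were. They lay at a median of 7.20 RPKM at 24 h and 2.62 RPKM at 0 h, and 23 of them were under 5 RPKM at 0 h. The groups did not overlap for 36 of the 38, which the choice of the models favours. Over all models fitted, 23% had the 3 libraries at 24 h above all 3 at 0 h. The 38 models took 0.220%, 0.225% and 0.235% of reads at 24 h, against 0.101%, 0.0979% and 0.0997% at 0 h. A single model, SMED30003909, accounted for 0.122% ± 0.0035 of reads at 24 h, against 0.0606% ± 0.00132 at 0 h, more than the other 37 together, which held 0.104% ± 0.00398 at 24 h, against 0.0389% ± 0.000709 at 0 h (SD, n = 3 each). The number of such rises was 22 with a pseudocount of 1 RPKM, 82 with 0.1 RPKM and 74 with limma-voom. Leaving out 1 library gave 40 to 52, and 18 of the 38 were at least 2-fold higher in all 6 of these fits, while 35 were still called higher in all 6.

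The largest rise on the log2(RPKM + 0.5) scale among the models that passed the naming rule was that of SMED30017313, a model of 336 bases. It had 27.3, 33.7 and 31.9 RPKM at 24 h, against 6.66, 9.0 and 7.67 RPKM at 0 h. The 3 libraries at 24 h were all above those at 0 h. Relative to the mean of each group, the spread was wider than that of SMED30031235. The values rest on few reads, 155, 278 and 177 at 24 h and 31, 30 and 32 at 0 h. The log2 change was 1.93 (SE 0.13, limma adjusted p = 1.75e-08), with a 95% interval from 1.65 to 2.21.

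The largest gain of reads among the models at least 2-fold higher was that of SMED30003909, a model of 444 bases and one of the most abundant in the worm. It had 2617, 2748 and 2829 RPKM at 24 h, against 1373, 1307 and 1387 RPKM at 0 h. The groups were well separated, at 2731 ± 107 RPKM at 24 h, against 1356 ± 42.5 RPKM at 0 h (SD, n = 3 each). It stood at place 17 in the order of mean RPKM at 24 h and at place 40 at 0 h. The log2 change was 1.01 (SE 0.06, limma adjusted p = 1.93e-09), and the 95% interval from 0.89 to 1.13 includes the limit of 2-fold. Its log2 change ranged from 0.98 to 1.04 when single libraries were left out, so it was below 2-fold without 24 h replicate 3 or without 0 h replicate 2, and it was 0.91 after quantile normalization. Without these libraries the share of reads of all models at least 2-fold higher was 0.108% at 24 h and 0.0413% at 0 h, and 0.0999% at 24 h and 0.0364% at 0 h.

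The models that rose at least 2-fold were short. Their median length was 552.5 bases, against 1178 bases for all 20089 models and 1260 bases for the 501 models that fell at least 2-fold. Of the 38 rising models, 33 (86.8%) were under 1000 bases, against 42.6% of all 20089 models and 38.3% of the falling ones. When all models were divided by length into 4 classes of equal size, 25 of the 38 lay in the shortest class (up to 644 bases) and 0 in the longest (1920 bases and over). The falls of at least 2-fold were spread more evenly, with 107, 120, 140 and 134 from the shortest to the longest class. Short models also had fewer reads and a wider spread. Their median SE of the log2 change was 0.18 in the shortest class and 0.06 in the longest, and the median SD of the log2 values in the shortest class was 0.18 at 24 h and 0.22 at 0 h. The part of read number in the length of the rising models was not tested.

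The direction of the called changes also moved with abundance. Of 1008 models with a mean of at least 100 RPKM over the 6 libraries, 517 (51.3%) were called higher and 273 (27.1%) lower. Between 10 and 100 RPKM, 2567 of 7377 models were higher (34.8%) and 1885 lower (25.6%). Between 1 and 10 RPKM, 966 of 11273 models were higher (8.57%) and 2161 lower (19.2%), but after quantile normalization this turned to 1766 higher and 1523 lower. Under 1 RPKM, 20 of 431 were higher and 81 lower. The classes also differed in precision, with a median SE of the log2 change of 0.04, 0.06, 0.13 and 0.23 in this order. The shares called are therefore not shares of models that changed. The median log2 change ran from 0.13 at 100 RPKM and over to 0.05 at 10 to 100 RPKM, -0.05 at 1 to 10 RPKM and -0.12 under 1 RPKM. After quantile normalization, which gives all libraries one distribution of values, these medians were 0.06, 0.05, 0.05 and -0.03. In thinned reads the excess of rises at 100 RPKM and over (497 and 261) and of falls at 1 to 10 RPKM (526 higher and 1545 lower) was still present.

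**Figure D4:**
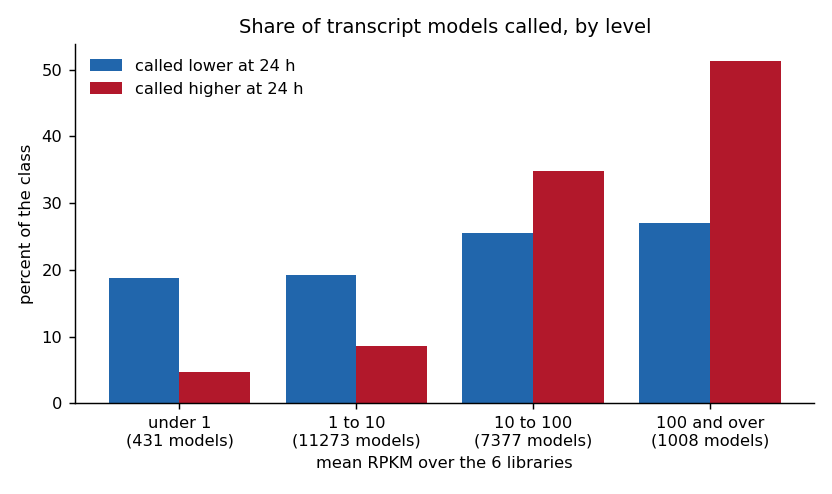
Percent of the models of each abundance class called lower (blue) or higher (red) at 24 h, with the number of models in the class below it. The share called higher was 4.64% under 1 RPKM and 51.3% at 100 RPKM and over, with the values as deposited. Precision differed between these classes, with a median SE of the log2 change of 0.23 under 1 RPKM and 0.04 at 100 RPKM and over. Models with a mean under 1 RPKM passed the filter only with uneven libraries, which shapes the shares of that class.

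The most abundant models, from 100 RPKM up, changed little in size but held most of the reads. The 517 higher ones had a median change of 0.31 on the log2 scale with quartiles of 0.21 and 0.42, and 37 of them reached 1.5-fold. They took 21.3% to 21.6% of reads in the libraries at 24 h, against 17.0% to 17.1% at 0 h. The 273 lower ones had a median change of -0.41 with quartiles of -0.53 and -0.27, and 50 of them reached 1.5-fold. They took 12.3% to 12.5% of reads at 24 h, against 15.9% to 16.0% at 0 h. Both sets were chosen on these libraries, so the separation of the groups is a description.

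**Figure D5:**
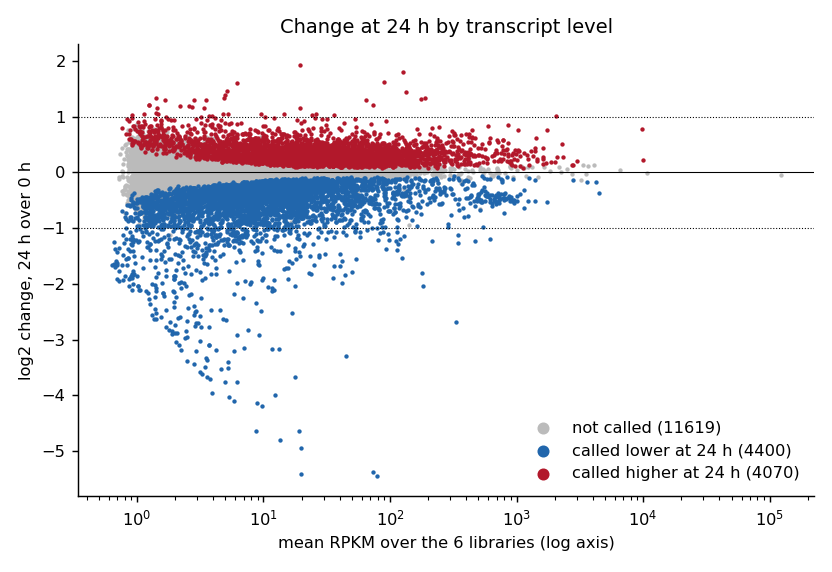
Log2 change at 24 h over 0 h of the 20089 transcript models against their mean RPKM over the 6 libraries (log axis), with models called lower in blue, called higher in red and not called in grey, and dotted lines at 2-fold. The falls reach -5.44 and the rises 1.93, and the band of models not called widens towards low levels.

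Most of the reads that changed place between the groups did so through small changes. Summed over the models that gained, the mean share of reads rose by 8.25 percentage points at 24 h over 0 h, and over the models that lost it fell by 8.21 points. The 3710 models that were higher by less than 1.5-fold carried 6.38 points, or 77.4% of the gain. The 38 models at least 2-fold higher carried 0.127 points, or 1.54%. On the side of the loss, the 2892 models that were lower by less than 1.5-fold changed by -4.62 points (56.2% of the loss) and the 501 models at least 2-fold lower by -0.93 points (11.3%). RPKM and shares of reads are relative to their own library, so a gain of one set of models and a loss of another are not independent, and a change in total RNA per worm does not show.

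The later libraries of the series show where the same models stood after the first day. All these contrasts share the libraries at 0 h, and the values are given side by side for that reason. Median log2 changes against 0 h are given from 24 to 96 h in daily steps. Those of the 41 models at least 8-fold lower were -3.52, -3.71, -3.78 and -3.73. The 78 models with falls of 4- to 8-fold had medians of -2.46, -2.53, -2.57 and -2.61 at these times, and the 382 with falls of 2- to 4-fold had -1.27, -1.33, -1.43 and -1.38. The medians of the 38 rising models were 1.19, 0.92, 0.66 and 0.45. For all 20089 models the medians were -0.01, 0.02, 0.02 and 0.03.

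In the direct contrast of 48 h with 24 h, which shares the libraries at 24 h in which the models were chosen, a further fall was called for 54 of the 501 falling models and a rise for 47, with 400 left uncalled. Over all models fitted, 6.28% were called lower and 6.8% higher in that contrast. Of the 41 models at least 8-fold lower, 7 fell further by 48 h and 0 rose. The median number of reads on such a model in a library at 24 h was 8. Of the 38 rising models, 11 fell by 48 h and 0 rose further. The models had been chosen for large differences at 24 h, and the part of that choice in these counts was not tested.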

How the data were processed

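The authors deposited RPKM values for 26671 transcript models in 15 libraries. Tools named in the submitters' processing notes are CASAVA 1.8.2, Bowtie and edgeR, with no role. The transcript set, mapping settings and strand use were not given in the sources read, so similar, overlapping or antisense models may share reads. Whole reads, model lengths and library divisors were worked out from the value steps, with relative depths set by 773 models above 0 and under 0.5 RPKM in all libraries. All 26671 models came out whole within 0.001 reads. Divisor over recovered reads ran from 0.974 to 1.027, so the deposited values carry a scaling beyond read totals.

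Values were transformed as log2(RPKM + 0.5), which understates changes at low levels. limma 3.58.1 (R 4.3.3) fitted a mean per time point to all 15 libraries for the 21231 models with 1 RPKM or more in 3 or more of them, with trended moderated variances, two-sided tests and Benjamini-Hochberg adjustment over the 21231. Models were called at an adjusted p below 0.05. The fit and the recovery of reads were tested on simulated data. Replicate numbers did not pair the libraries, and the fit has no replicate term. Alternatives were other pseudocounts, filters and scalings, thinned reads (fixed seed), limma-voom, 6 libraries only, a replicate term and leaving out each library.

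With no gene names, 4 models are named. In each direction these are the model with the largest log2 change and the one with the largest change in share of reads, among called, non-overlapping models changed at least 2-fold with a mean of at least 5 RPKM in the higher group. The lists of marker genes had no IDs to match. The models and tests were chosen with earlier results of these data known. Tables and figures used Python 3.11.15, numpy 2.4.6, pandas 2.3.3, scipy 1.17.1 and matplotlib 3.10.9.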

Additional observations from a re-analysis of the deposited data

Results flagged for a closer look

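Of the 4 named models, 3 differed between 24 h and 48 h after irradiation in a direct limma contrast of these times. The contrast shares the libraries at 24 h in which the models were chosen, and its p-values do not account for that choice. The part of the choice in these values was not tested. SMED30031235 had a log2 change of -0.86 at 48 h over 24 h (SE 0.07, limma adjusted p = 3.51e-06), with 1.53, 1.36 and 1.503 RPKM at 48 h against 2.94, 3.24 and 3.04 RPKM at 24 h, lower in 3 of 3 libraries. SMED30014446 changed by -0.20 (SE 0.03, limma adjusted p = 0.000467), with 58.1, 57.8 and 58.1 RPKM at 48 h against 66.0, 66.1 and 68.3 RPKM at 24 h, again lower in 3 of 3. SMED30017313 changed by -0.996 (SE 0.13, limma adjusted p = 0.000165), with 16.4, 13.6 and 15.8 RPKM at 48 h against 27.3, 33.7 and 31.9 RPKM at 24 h, lower in 3 of 3. For SMED30003909 the difference between these times was not called (log2 change -0.03, SE 0.06, limma adjusted p = 0.807).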

How the results depend on the processing

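With 3 libraries a group, a fitted change rests on few values, and low models on few reads. The counts called higher and lower stayed within 1.5 times under all 16 settings, and none of the models called one way was called the other way in any of them. Across settings, 2997 of the 4400 lower and 2591 of the 4070 higher models were called the same way in all. Leaving out 1 library gave 3581 to 3850 higher, 3939 to 4090 lower, 498 to 536 at least 2-fold lower, 40 to 52 at least 2-fold higher and 39 to 43 at least 8-fold lower. With a pseudocount of 0.1 RPKM there were 82 rises of at least 2-fold and 113 falls of at least 8-fold, with 1 RPKM 22 and 17, and with limma-voom 74 and 125. Quantile normalization raised the share of rises among calls to 56.2%, against 48.1% as deposited. The cause was not tested. As shares of summed RPKM, the models at least 2-fold lower took 0.494% at 24 h and 1.45% at 0 h, and those at least 2-fold higher 0.528% at 24 h and 0.244% at 0 h. Without single libraries the read shares ran from 0.480% to 0.522% at 24 h and 1.41% to 1.498% at 0 h for the falls, and from 0.0999% to 0.231% at 24 h and 0.0364% to 0.1001% at 0 h for the rises. The 4 named models kept their call and direction under all settings. Replicates with the same number did not deviate together between the groups (correlations of -0.01, -0.02 and 0.00). A fit with the replicate block gave 4055 higher, 4381 lower, 501 at least 2-fold lower, 38 at least 2-fold higher and 41 at least 8-fold lower.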
